A study of Mus musculus with 6 samples.

Results

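The genes described here are 8 genes of 2 signalling systems that act on blood vessels and on cells of the neural crest. They are the endothelin ligands Edn1 and Edn3, the endothelin-converting enzyme Ece1, the endothelin receptors Ednra and Ednrb, and the angiotensin II receptors Agtr1a, Agtr1b and Agtr2. They were chosen by symbol, with earlier results of these data known, and are 8 of 32285 features counted in each library. Their counts were taken from 6 single-cell libraries of whole dissociated autonomic ganglia, and they were followed in neurons, glial cells and vessel cells of each ganglion. The ganglia were the stellate ganglion and the lumbar chain (paravertebral, sympathetic), the coeliac-superior mesenteric complex (prevertebral, sympathetic, here coeliac), the sphenopalatine ganglion (parasympathetic) and, in 2 libraries, the pelvic ganglion.

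All pups were at postnatal day 5, were of both sexes and carried a Cre transgene together with a Cre-dependent tdTomato reporter at the Rosa locus. No library came from mice without these alleles, no treatment was applied, and the cells were not sorted on the reporter. Stellate, sphenopalatine and the first pelvic library (pelvic 1) were made with an older version of the 3' chemistry, and coeliac, lumbar and the second pelvic library (pelvic 2) with a newer version. These rounds also differed in the cells loaded (10000 and 5300), the facility and the sequencer, so that older and newer chemistry here stand for all of these. Round and ganglion cannot be told apart outside the pelvic ganglion. Each of the other ganglia had 1 library, and no test between ganglia was made. The number of pups behind each library is not given in the sources used here, and p-values between cell classes measure only the spread between these libraries.

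Endothelins are short peptides cut from large precursors, with endothelin-converting enzymes making the last cut. Endothelial cells release endothelin 1, which acts through the Ednra receptor on smooth muscle to constrict vessels, whereas endothelin 3 acts through the Ednrb receptor on neural crest progenitors and glial precursors and is required for the enteric nervous system to form. Angiotensin II constricts vessels through its type 1 receptor, encoded in mice by the paralogues Agtr1a and Agtr1b, and also acts on sympathetic neurons through that receptor, while the type 2 receptor, Agtr2, is prominent in fetal and neonatal tissue.

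In all, 21442 cells passed the filters, from 1427 in coeliac to 7219 in stellate, out of between 2111 and 11122 deposited droplets and 39353313 to 113352559 unique molecular identifiers (UMIs) per library. Of these cells 7052 were neurons, 8208 glial-like, 725 endothelial-like, 613 mural-like (pericytes and smooth muscle of the vessel wall), 3254 fibroblast-like and 529 macrophage-like, the last 5 named from marker genes, and 835 stayed unnamed. The 8 genes were left out when cells were clustered. Levels are UMIs summed over the cells of a class in a library, scaled to counts per 1e6 UMIs of that class (CPM), and are compared within a gene. Pairs of libraries shared between 0 and 49 barcodes of retained cells, and 10.5% of cells had over 50% simulated doublets among their neighbours. The summed level of 5 noradrenergic markers in neurons followed the ganglion labels. It was 4754, 3932 and 3362 CPM in stellate, coeliac and lumbar and 123 CPM in sphenopalatine. Classes also held markers of other cells. In endothelial-like cells 5 erythroid markers summed to 4502 to 30493 CPM over libraries, beside 5488 to 6938 CPM for 8 endothelial markers. In glial-like cells 7 fibroblast markers summed to 1829 to 7206 CPM, beside 8866 to 14116 CPM for 7 glial markers.

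The promoters of the ligand and enzyme genes are shown because Edn1 and Ece1 had their highest levels in the same class, endothelial-like cells, and Edn3 did not. The sequences are the 250 bases before the annotated start in RefSeq (GRCm38.p6, plus strand), and 7 of the 8 genes had an entry. For Ece1 4 starts were listed, of which 1 is shown, and what was or was not found there holds for that window only. Capitals mark the match to the ETS core GGAAG.
Edn1 (chr13:42301226-42301475): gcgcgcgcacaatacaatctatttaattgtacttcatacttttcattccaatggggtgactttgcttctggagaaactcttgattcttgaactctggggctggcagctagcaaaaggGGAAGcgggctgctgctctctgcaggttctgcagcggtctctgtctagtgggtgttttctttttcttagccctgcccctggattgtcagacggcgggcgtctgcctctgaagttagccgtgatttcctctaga
Edn3 (chr2:174760369-174760618): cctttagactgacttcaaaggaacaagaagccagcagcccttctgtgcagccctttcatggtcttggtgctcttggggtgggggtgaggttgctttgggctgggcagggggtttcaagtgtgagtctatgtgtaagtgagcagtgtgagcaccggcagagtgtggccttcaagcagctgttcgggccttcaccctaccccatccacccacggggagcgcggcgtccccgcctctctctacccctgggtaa
Ece1 (chr4:137861987-137862236): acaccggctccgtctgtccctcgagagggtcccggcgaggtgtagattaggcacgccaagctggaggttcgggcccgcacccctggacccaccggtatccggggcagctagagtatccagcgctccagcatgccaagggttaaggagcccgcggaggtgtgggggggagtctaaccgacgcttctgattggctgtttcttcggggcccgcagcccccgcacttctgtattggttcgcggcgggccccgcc
The 5 core motifs searched on both strands were GATAA (GATA factors), GGGCGG (the GC box), TGANTCA (AP-1), TATAAA (the TATA box) and GGAAG. Only GGAAG was found, once, in the Edn1 window. Among 32851 promoters of this length 64.1% held GGAAG, 22.6% held GATAA, 32.7% GGGCGG, 6.75% TGANTCA and 12.4% TATAAA. The share of G and C was 50.4% for Edn1, 59.2% for Edn3 and 66.8% for Ece1, against a median of 52.4% over all promoters.

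Which cells of a ganglion hold these transcripts was asked by setting each of 5 classes (neurons, glial-like, endothelial-like, mural-like, fibroblast-like) against the mean of the other 4, with the library as a block, over 14307 genes (edgeR's quasi-likelihood test, Benjamini-Hochberg adjusted p under 0.05). Agtr1b did not pass the filter on low counts, and 7 of the 8 genes were tested. In neurons 1 of the 7 was higher (44.4% of all genes tested) and 4 lower (36.0%). In glial-like cells 2 were higher (28.8%) and 4 lower (28.3%). In endothelial-like cells 3 were higher (31.4%) and 2 lower (32.2%). In mural-like cells 2 were higher (16.5%) and 1 lower (23.6%), and in fibroblast-like cells 4 were higher (28.7%) and 3 lower (28.0%). The median log2 fold change of the 7 genes was -1.21, -1.50, -0.61, 0.91 and 1.01 in these 5 classes, and that of all genes tested was 0.12, -0.03, -0.04, -0.17 and -0.02. Since the called share was large for all genes tested, nothing is read from the number of calls alone. For 6 of the 8 genes, the lowest library of 1 class stood above the highest library of the other 4 classes. The share of all genes with such a gap was not computed, and nothing is read from this count either.

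**Figure D1:**
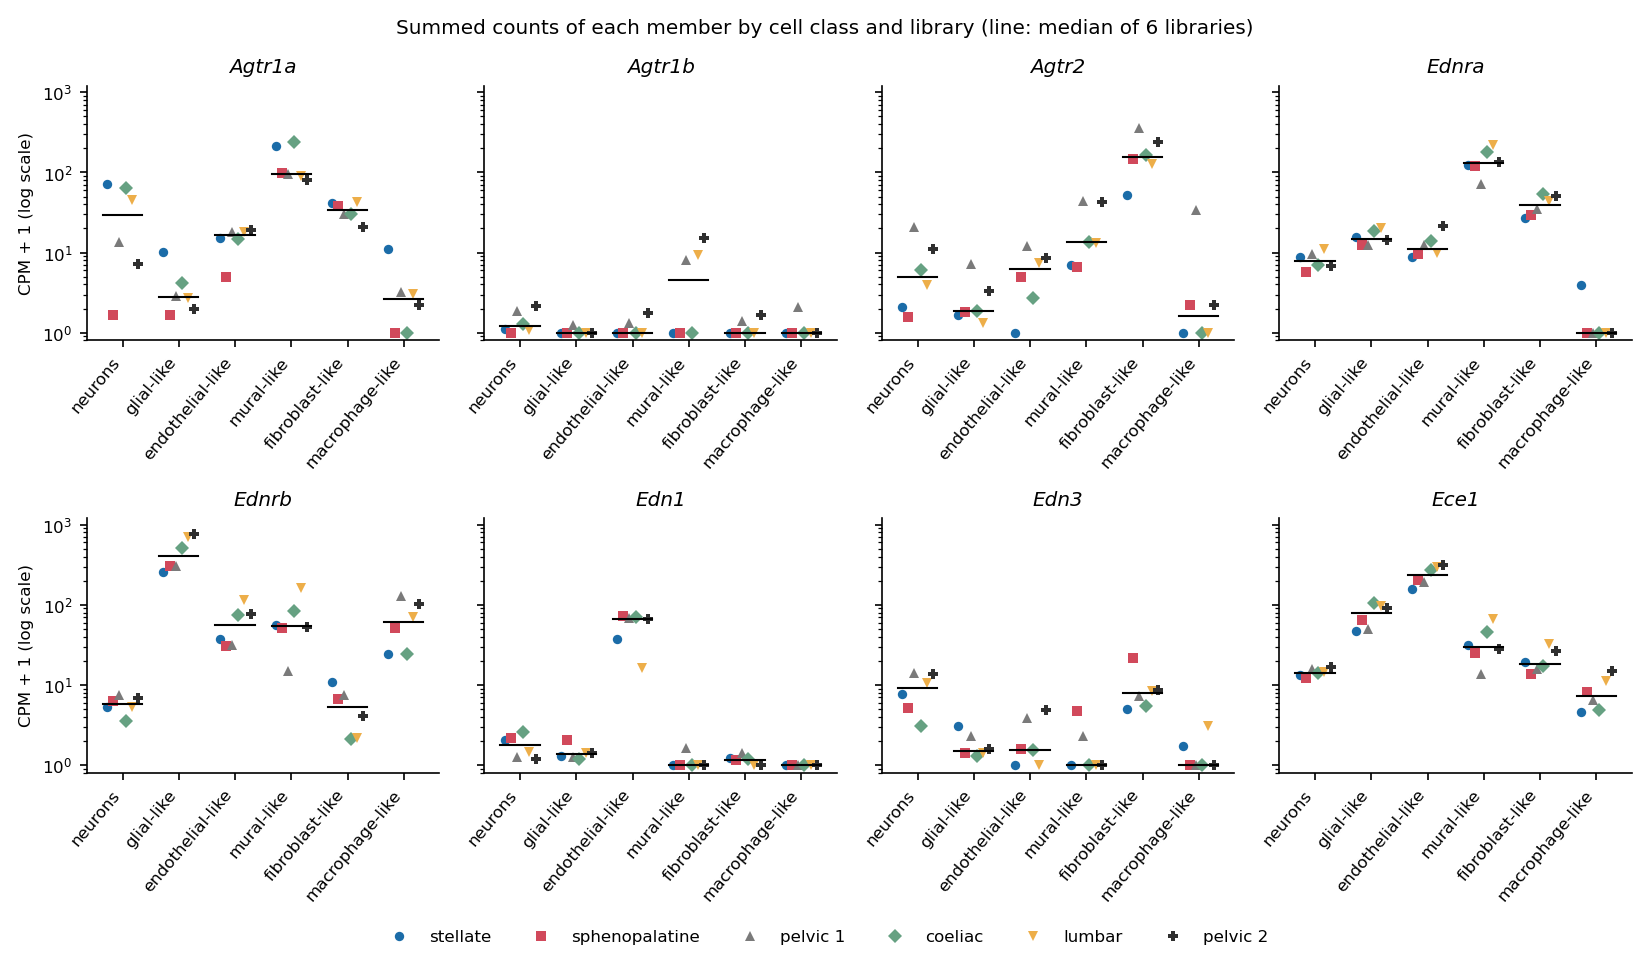
Level of each of the 8 genes (CPM + 1, log axis) in 6 cell classes, with 1 point for each of 6 libraries and a line at their median. Agtr1a and Ednra were highest in mural-like, Edn1 and Ece1 in endothelial-like, Ednrb in glial-like and Agtr2 in fibroblast-like cells, while Edn3 stayed under 21 CPM in each class.

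Edn1 (ENSMUSG00000021367, GRCm38 chromosome 13, 42301476 to 42307990, plus strand) encodes the precursor of endothelin 1. Its level in endothelial-like cells was 36.0 CPM in stellate, 71.3 in sphenopalatine, 66.9 in pelvic 1, 69.8 in coeliac, 15.2 in lumbar and 64.7 in pelvic 2. Lumbar, with 37 endothelial-like cells, had the lowest of these levels, and the highest level in any library of the other 4 classes was 1.61 CPM, so that the groups did not overlap. Its median was 0.758 CPM in neurons, 0.359 in glial-like and 0.169 in fibroblast-like cells, and no UMI was found in mural-like cells outside pelvic 1 (0.641 CPM) or in macrophage-like cells. Edn1 was higher in endothelial-like cells by 7.32 on the log2 scale (SE 0.31, edgeR adjusted p = 1.38e-16). It was lower in fibroblast-like cells by a log2 fold change of -3.07 (SE 1.12, edgeR adjusted p = 0.0223). This call was lost in 3 of 17 alternatives (other processing, tests or sets of libraries), among them that without pelvic 1 (-2.64, edgeR adjusted p = 1.00). Free RNA from broken cells gives every droplet some UMIs of the genes of other classes. The neuronal level of Edn1 was a median of 1.99% of its endothelial level, whereas Cldn5, Flt1 and Kdr, markers of endothelium, had medians of 0.123%, 0.164% and 0.225% in neurons. Over libraries the share of Edn1 was 0.293% to 3.08%, and the ranges of Flt1 (0.105% to 0.394%) and Kdr (0.177% to 0.304%) overlapped it. The lowest was pelvic 2, where 7 UMIs made 0.190 CPM, and 2 UMIs were left after removal of doublet-flagged cells.

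Edn3 (ENSMUSG00000027524, chromosome 2, 174760619 to 174784042, plus strand), the precursor of endothelin 3, was held by neurons and fibroblast-like cells. Its neuronal level was 6.65 CPM in stellate, 4.18 in sphenopalatine, 13.1 in pelvic 1, 2.06 in coeliac, 9.70 in lumbar and 12.6 in pelvic 2. Its fibroblast level ran from 4.03 to 20.8 CPM with a median of 6.81, and the highest of these was sphenopalatine. These ranges overlapped each other, and medians in glial-like, endothelial-like and mural-like cells were 0.497, 0.562 and 0 CPM. Edn3 was higher in neurons (log2 fold change 2.32, SE 0.39, edgeR adjusted p = 6.99e-06) and in fibroblast-like cells (2.43, SE 0.43, edgeR adjusted p = 3.06e-05). The lower call in glial-like cells (-1.87, SE 0.62, edgeR adjusted p = 0.0117) was lost in 4 of 17 alternatives. Among these were those without sphenopalatine (-1.44, edgeR adjusted p = 0.0619) and without pelvic 1 (-1.85, edgeR adjusted p = 0.0678). In mural-like cells the log2 fold change of -2.02 was not called (edgeR adjusted p = 0.114) and was called without sphenopalatine (-2.78, edgeR adjusted p = 0.0483).

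Ece1 (ENSMUSG00000057530, chromosome 4, 137862237 to 137965229, plus strand), the membrane enzyme that cuts the endothelin precursors, was found in every class. In endothelial-like cells it had 155 CPM in stellate, 200.2 in sphenopalatine, 192 in pelvic 1, 267 in coeliac, 299 in lumbar and 312 in pelvic 2. All 6 values were above the highest value of any other class, 105 CPM in coeliac glial-like cells. Glial-like cells were next, with 45.9 to 105 CPM and a median of 76.9, and neurons had the narrowest range, 11.2 to 15.5 CPM. Ece1 was higher in endothelial-like cells (log2 fold change 3.09, SE 0.13, edgeR adjusted p = 8.83e-17) and in glial-like cells (0.86, SE 0.14, edgeR adjusted p = 7.99e-06). It was lower in neurons (-1.85, SE 0.16, edgeR adjusted p = 9.27e-11), in mural-like cells (-0.77, SE 0.20, edgeR adjusted p = 0.00333) and in fibroblast-like cells (-1.33, SE 0.16, edgeR adjusted p = 1.45e-07). The mural call was lost with the newer chemistry only (-0.55, edgeR adjusted p = 0.132). In both endothelial-like and glial-like cells the 3 libraries of the newer chemistry stood above the 3 of the older.

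Ednra (ENSMUSG00000031616, chromosome 8, 77663031 to 77724464, minus strand) encodes the receptor that vessel muscle uses for endothelin 1. Mural-like cells had 123 CPM in stellate, 118 in sphenopalatine, 71.7 in pelvic 1, 180 in coeliac, 222 in lumbar and 134 in pelvic 2. Every one of these was above the highest fibroblast library, 53.0 CPM in coeliac, the nearest value of another class. Ranges in neurons (4.75 to 10.2 CPM), endothelial-like cells (7.94 to 20.3 CPM) and glial-like cells (11.3 to 19.1 CPM) were lower. The gene was higher in mural-like cells (log2 fold change 3.05, SE 0.16, edgeR adjusted p = 5.77e-14) and in fibroblast-like cells (1.01, SE 0.15, edgeR adjusted p = 4.58e-06). It was lower in neurons (-1.91), glial-like (-0.96) and endothelial-like cells (-1.18), with edgeR adjusted p of 3.91e-10, 4.02e-05 and 1.74e-05.

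Ednrb (ENSMUSG00000022122, chromosome 14, 103814625 to 103844402, minus strand), the receptor for both ligands, was the glial gene of the set. In glial-like cells it had 252 CPM in stellate, 308 in sphenopalatine, 306 in pelvic 1, 505 in coeliac, 694 in lumbar and 759 in pelvic 2. The round with the newer chemistry again held the 3 higher values, pelvic 2 being above pelvic 1, and all 6 were above the highest value of the other 4 classes, 160 CPM in lumbar mural-like cells. Levels in neurons were 2.5 to 6.57 CPM, and their median was 1.23% of the glial level, where Fabp7 and Sox10, glial markers, had 0.794% and 0.959%. After removal of doublet-flagged cells the neuronal level was lower in all 6 libraries. It was 2.66 in place of 4.36 CPM in stellate, 2.79 in place of 5.21 in sphenopalatine and 3.59 in place of 6.57 in pelvic 1. In the newer chemistry it was 2.39 in place of 2.5 CPM in coeliac, 3.36 in place of 4.34 in lumbar and 3.51 in place of 5.82 in pelvic 2. With neurons selected on log counts the level was 1.71 CPM in pelvic 1, 1.31 CPM in pelvic 2 and 1.88 to 3.35 CPM in the other libraries. The part of glial RNA in the neuronal level was not tested.

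In vessel cells the share of Ednrb stood further from those of the glial markers. Endothelial-like cells had 29.98 to 113 CPM with a median of 12.2% of the glial level, against 0.567% for Fabp7 and 1.01% for Sox10. Mural-like cells had 14.1 to 160 CPM with a median of 16.4%, against 4.10% and 3.73%. Macrophage-like cells had 23.2 to 127 CPM, a median of 11.6% of the glial level. Ednrb was higher in glial-like cells (log2 fold change 4.62, SE 0.27, edgeR adjusted p = 1.75e-13) and in endothelial-like cells (0.99, SE 0.32, edgeR adjusted p = 0.00963). The endothelial call was lost in 3 of 17 alternatives, among them that without pelvic 2 (0.81, edgeR adjusted p = 0.0560). In mural-like cells Ednrb was not called (0.92, SE 0.39, edgeR adjusted p = 0.0594). It was called in 6 of 17 alternatives, among them that without pelvic 1 (1.25, edgeR adjusted p = 0.0155). Ednrb was lower in neurons (-3.19, SE 0.39, edgeR adjusted p = 3.78e-08) and in fibroblast-like cells (-3.35, SE 0.43, edgeR adjusted p = 2.79e-07).

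Agtr1a (ENSMUSG00000049115, chromosome 13, 30336441 to 30382867, plus strand) encodes the main type 1 angiotensin II receptor of the mouse. Mural-like cells had 210 CPM in stellate, 97.4 in sphenopalatine, 94.2 in pelvic 1, 238 in coeliac, 90.3 in lumbar and 80.7 in pelvic 2. The lowest of these was above the highest value of the other 4 classes, which was 70.2 CPM in stellate neurons. Neurons ran from 0.645 CPM in sphenopalatine to this value, the largest ratio of highest to lowest library among these 5 classes, whereas fibroblast-like cells kept to 20.0 to 41.8 CPM and endothelial-like cells to 3.96 to 18.4 CPM. Agtr1a was higher in mural-like cells (log2 fold change 3.17, SE 0.42, edgeR adjusted p = 1.27e-06) and lower in glial-like cells (-4.00, SE 0.58, edgeR adjusted p = 1.76e-06). Neither neurons (0.36, SE 0.42) nor endothelial-like cells (-0.61, SE 0.51) were called, with edgeR adjusted p of 0.429 and 0.311.

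The higher call of Agtr1a in fibroblast-like cells (log2 fold change 1.08, SE 0.42, edgeR adjusted p = 0.0315) was near the threshold. It was lost in 9 of 17 alternatives. Among these were leaving out sphenopalatine (0.68, edgeR adjusted p = 0.0715), pelvic 1 (1.07, 0.0786), lumbar (1.09, 0.0666) or pelvic 2 (1.12, 0.0533). In endothelial-like cells the level was a median of 12.5% of the mural level, beside 8.66% for Rgs5, 6.65% for Kcnj8 and 6.07% for Higd1b, markers of mural cells. In glial-like cells it was a median of 13.8% of the neuronal level, beside 5.9% for Stmn2, 6.71% for Th and 6.83% for Dbh. Over libraries this share of Agtr1a ran from 3.77% to 102%, highest in sphenopalatine, where neurons had 0.645 CPM. Those of Stmn2 (3.03% to 18.4%), Th (4.55% to 21.8%) and Dbh (3.26% to 20.9%) overlapped it.

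Agtr1b (ENSMUSG00000054988, chromosome 3, 20314473 to 20367177, minus strand), the close paralogue of Agtr1a, had 163 UMIs in 138 cells, in 5 of the 6 libraries. How reads shared by the 2 genes were handled is not given in the sources used here, and values of both are uncertain to that extent. In mural-like cells 11 UMIs were found in pelvic 1 (7.05 CPM), 2 in lumbar (8.21 CPM) and 15 in pelvic 2 (14.1 CPM). None were found in stellate, sphenopalatine and coeliac, where 3 counts would have made 6.06, 5.62 and 7.51 CPM. Neurons had 0 to 1.14 CPM, with the highest level in pelvic 2.

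Agtr2 (ENSMUSG00000068122, chromosome X, 21484544 to 21489164, plus strand), the type 2 receptor, was highest in fibroblast-like cells among the 5 classes in each library. Fibroblast-like cells had 51.2 CPM in stellate, 148 in sphenopalatine, 357 in pelvic 1, 165 in coeliac, 126 in lumbar and 237 in pelvic 2. The highest value of another of the 5 classes was 43.6 CPM, in pelvic 1 mural-like cells, and no library of these classes overlapped. An unnamed cluster led by Chga, outside these classes and described below, had 222 to 1136 CPM in 5 libraries. Parts of other classes, also described below, reached 108 CPM (Kcnj8-rich mural-like cells) and 61.2 CPM (P3-like neurons) in pelvic 1. Both pelvic libraries led in fibroblast-like, mural-like, glial-like and endothelial-like cells and in neurons. In glial-like cells Agtr2 was a median of 0.751% of its fibroblast level, beside 2.89%, 0.282% and 0.489% for the fibroblast markers Col1a1, Dcn and Lum. In neurons, endothelial-like and mural-like cells it was 2.67%, 2.90% and 10.8%, beside 0.253%, 0.801% and 2.49% for Col1a1. The part of fibroblast RNA in these levels was not tested. Agtr2 was higher in fibroblast-like cells (log2 fold change 5.39, SE 0.24, edgeR adjusted p = 7.8e-16) and lower in neurons (-1.21, SE 0.30, edgeR adjusted p = 0.000619), glial-like cells (-3.54, SE 0.39, edgeR adjusted p = 1.97e-08) and endothelial-like cells (-1.54, SE 0.42, edgeR adjusted p = 0.00247). The endothelial call was lost without the library block (-1.48, edgeR adjusted p = 0.0747) and with the older chemistry only (-1.65, edgeR adjusted p = 0.0746). In mural-like cells Agtr2 was not called (0.91, SE 0.40, edgeR adjusted p = 0.0746). It was called in 4 of 17 alternatives, among them that without sphenopalatine (1.07, edgeR adjusted p = 0.00861).

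Neurons of the ganglia differed most in Agtr1a. Its level was 70.2 CPM in stellate (95% Poisson interval 68.3 to 72.0), 62.1 in coeliac (58.5 to 65.9) and 45.0 in lumbar (43.4 to 46.5), the 3 sympathetic ganglia. It was 12.6 CPM (11.4 to 13.8) in pelvic 1 and 6.18 CPM (5.4 to 7.03) in pelvic 2, with a pelvic mean of 9.37 ± 4.52 CPM (SD, n = 2), and 0.645 CPM (0.477 to 0.852) in sphenopalatine. No 2 of these intervals overlapped, and the order was the same in both chemistries, sympathetic above pelvic. Intervals cover counting error only, and all ganglia but the pelvic are single libraries.

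At least 1 Agtr1a UMI was seen in 66.2% of stellate, 75.5% of coeliac and 73.7% of lumbar neurons, in 18.9% and 23.0% of pelvic 1 and pelvic 2 neurons, and in 2.10% of sphenopalatine neurons. Neurons of the newer chemistry were deeper, and after each neuron was thinned to 4000 UMIs the shares were 20.6% in stellate, 17.2% in coeliac, 15.4% in lumbar, 4.71% in pelvic 1, 1.72% in pelvic 2 and 0.370% in sphenopalatine. At equal depth, pelvic 2 thus had a lower share than pelvic 1, as in CPM.

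The type 2 receptor had another order. Agtr2 in neurons was 19.9 CPM (18.5 to 21.4) in pelvic 1 and 10.2 CPM (9.18 to 11.3) in pelvic 2, mean 15.0 ± 6.87 (SD, n = 2), and 5.01 CPM (4.02 to 6.15) in coeliac, 2.90 (2.52 to 3.32) in lumbar, 1.07 (0.855 to 1.32) in stellate and 0.566 (0.409 to 0.762) in sphenopalatine. Both pelvic libraries stood above the other 4. In coeliac the level was 3.30 CPM after removal of doublet-flagged cells.

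Edn3 was also highest in pelvic neurons, where pelvic 1 and pelvic 2 had 13.1 CPM (11.9 to 14.3) and 12.6 CPM (11.5 to 13.8), mean 12.9 ± 0.288 (SD, n = 2). Lumbar followed with 9.70 CPM (9.0 to 10.4), then stellate with 6.65 (6.10 to 7.24), sphenopalatine with 4.18 (3.74 to 4.67) and coeliac with 2.06 (1.45 to 2.84). After removal of doublet-flagged cells pelvic 2 no longer stood above lumbar. Edn3 was then 10.3 CPM (9.26 to 11.5) in pelvic 2, 10.4 CPM (9.55 to 11.2) in lumbar and 13.1 CPM in pelvic 1. Ece1 was the most even gene, with a pelvic mean of 15.2 ± 0.470 CPM and 11.2 to 13.4 CPM in the other 4 libraries. The pelvic means of Ednra, Ednrb and Edn1 were 7.23 ± 2.11, 6.2 ± 0.527 and 0.217 ± 0.0394 CPM (SD, n = 2 libraries). That of Ednrb depended on the cell selection. Without doublet-flagged cells Ednrb was 3.59 CPM in pelvic 1 and 3.51 CPM in pelvic 2.

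Pairs of libraries from different ganglia within the same chemistry numbered 6 for each gene. The Poisson intervals of neurons were apart in 6 of 6 pairs for Agtr1a, Agtr2 and Edn3, in 5 for Agtr1b and Ednrb, in 4 for Ednra and Edn1, and in 3 for Ece1, 39 of 48 in all. The number was 32 after removal of doublet-flagged cells. The share of such pairs over all genes was not computed, and nothing is read from these counts.

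**Figure D2:**
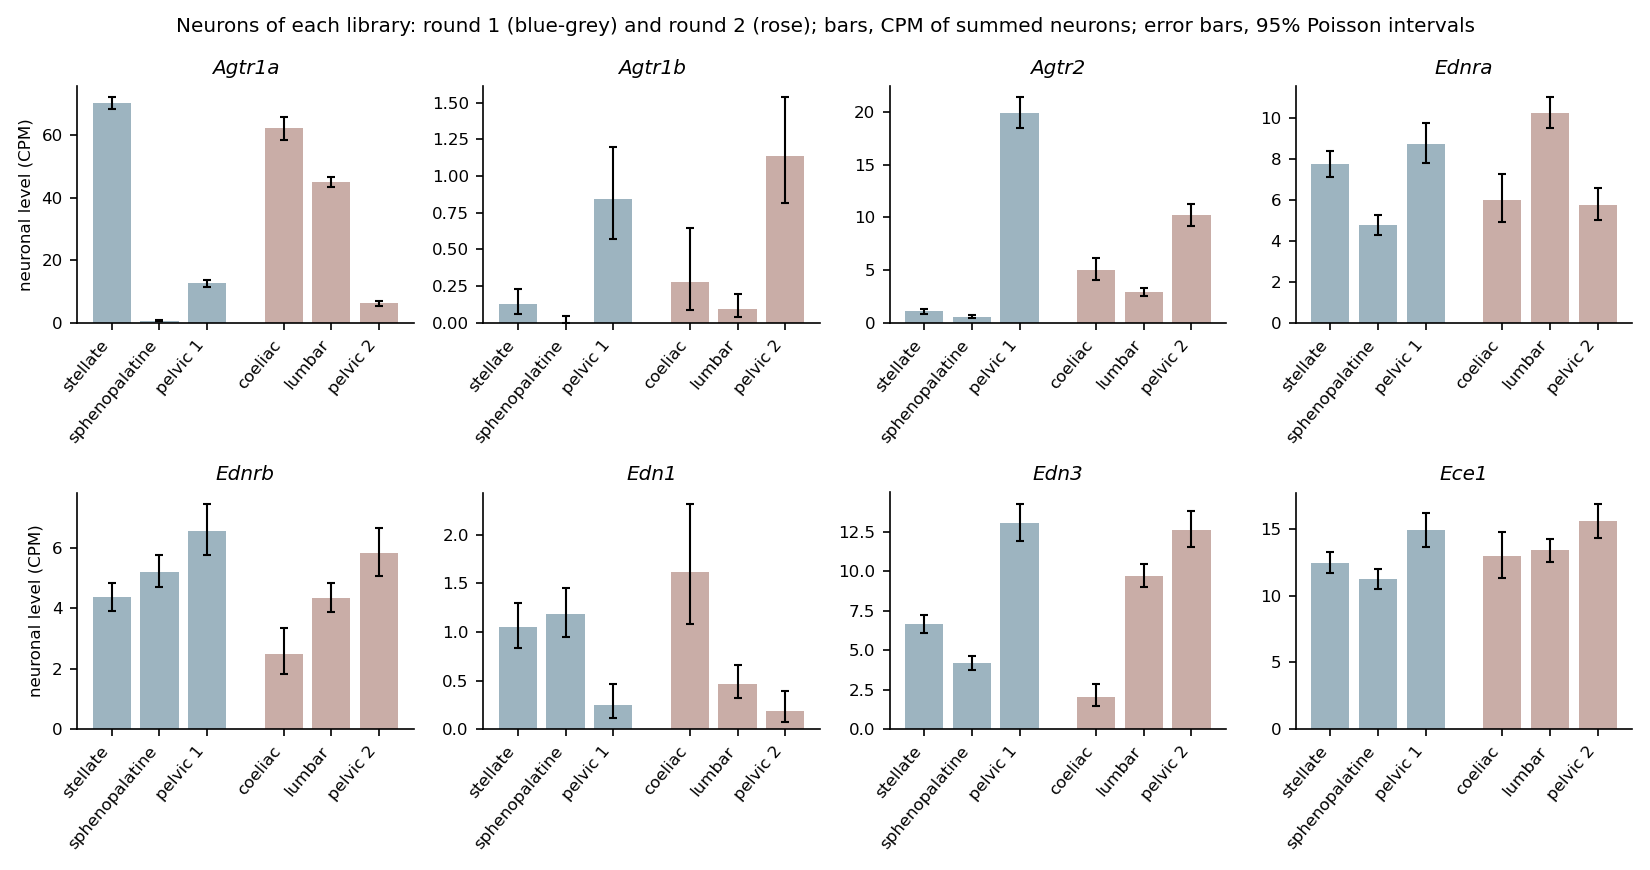
Level of the 8 genes in neurons (CPM), with 1 bar for each library, 95% Poisson intervals as error bars, and the older and newer chemistry in blue-grey and rose. Agtr1a is tall in stellate, coeliac and lumbar and near 0 in sphenopalatine, Agtr2 and Edn3 are tallest in the pelvic libraries, and Ece1 is nearly level.

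Within stellate and lumbar, levels of Agtr1a were lower and those of Agtr2, Ednra and Edn3 higher in the cholinergic-like than in the noradrenergic-like clusters, although in stellate the shares of neurons with a UMI of Ednra and Edn3 did not follow these levels. In stellate, 4 noradrenergic-like clusters of 269 to 874 neurons had 54.5 to 111 CPM of Agtr1a and 0.07 to 0.51 CPM of Agtr2. A cholinergic-like cluster of 190 neurons, led by Vip, Sst and Cartpt, had 17.5 CPM of Agtr1a (13.1 to 23.0) and 19.6 CPM of Agtr2 (14.8 to 25.3). The same cluster had 34.4 CPM of Ednra (28.0 to 41.7) and 38.8 CPM of Edn3 (32.0 to 46.5), where the noradrenergic-like clusters had 5.24 to 9.63 and 0.88 to 13.4 CPM. At least 1 Agtr2 UMI was seen in 17.9% of these neurons and in 0.366% to 1.12% of the noradrenergic-like. For Ednra the share was 14.2% (3.72% after thinning to 4000 UMIs) against 18.5% to 22.3% (2.17% to 3.73%), and for Edn3 11.6% (5.32%) against 2.29% to 31.0% (0.373% to 5.17%). The levels of Ednra and Edn3 there thus came from few neurons, 27 and 22.

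In lumbar the levels and the shares moved together in a cluster of 40 cholinergic-like neurons led by Sst, Calca and Slc18a3. Agtr1a was 1.07 CPM there (0.29 to 2.74), against 48.6 and 66.9 CPM in the noradrenergic-like clusters of 526 and 47 neurons. Agtr2 was 29.96 CPM (24.7 to 36.0) and was seen in 75.0% of its neurons, against 0.67 and 0.63 CPM and 3.42% and 6.38%. Ednra was 63.9 CPM (56.1 to 72.6) and was seen in 87.5% (30.8% after thinning), against 8.18 and 4.09 CPM and 42.6% and 36.2% (4.87% and 0%). Edn3 was 110 CPM (99.3 to 121) and was seen in 82.5% (30.8% after thinning), against 3.74 and 17.9 CPM and 12.9% and 48.9% (1.22% and 8.89%). This was the highest Edn3 level of any neuron cluster.

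A further lumbar cluster of 46 neurons, led by Sytl4, Ghrh and Cbln2 and left unnamed, had 8.44 CPM of Agtr1a and 49.0 CPM of Agtr2 (37.2 to 63.3, in 13 cells), but 1.69 CPM of Ednra and no UMI of Edn3. Agtr2 was thus not always found with the endothelin genes. Coeliac had no cholinergic-like cluster, and its 3 clusters had 43.4 to 86.5 CPM of Agtr1a. In stellate, an unnamed cluster of 171 neurons led by Sparc and Dcn, genes of connective tissue, had 24.1 CPM of Ednrb, and the part of other cells' RNA in it was not tested. Another unnamed stellate cluster, of 29 neurons led by Adgrg6 and Pnoc, had 2 of 4 cholinergic markers high. Agtr1a was 1.59 CPM and Edn3 18.2 CPM in these neurons. Ednra was 4.76 CPM (1.75 to 10.4), and no UMI of Agtr2 was found, where 3 counts would have made 2.38 CPM.

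In sphenopalatine no cluster had over 2.66 CPM of Agtr1a. Edn3 there was 12.3 CPM in 389 neurons led by Pyy and Dbh and 7.80 CPM in 227 led by Penk, and 0.15 to 2.92 CPM in the other clusters. Ednra was highest, 11.02 CPM, in 306 neurons led by Rxfp1 and Hspb7. Since clusters were drawn from all genes of the same cells but the described ones, these are descriptions without a test.

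**Figure D3:**
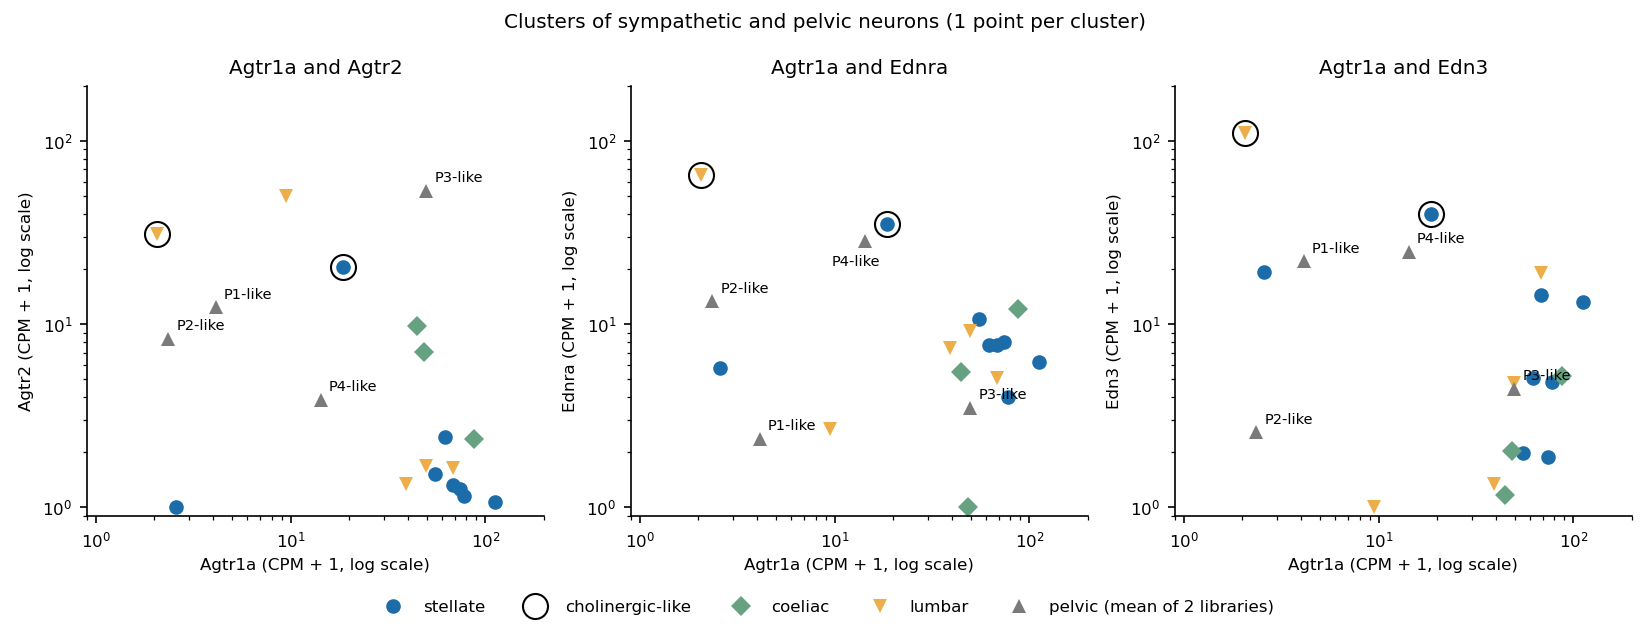
Levels of Agtr2, Ednra and Edn3 against Agtr1a (CPM + 1, log axes), with 1 point for each neuron cluster of a ganglion, cholinergic-like clusters ringed and pelvic points at the mean of 2 libraries. The cholinergic-like clusters of stellate and lumbar lie left of and above the noradrenergic-like clusters of the same ganglion in all 3 panels.

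Pelvic neurons fell into 4 named clusters, P1-like (548 neurons, led by Vip and Cartpt), P2-like (351, led by Grp), P3-like (164, led by the noradrenergic genes Th, Dbh and Slc6a2) and P4-like (90, led by Aldh1a2, Calca, Vcan and Sst), and 105 neurons led by haemoglobin and collagen genes stayed unnamed. Agtr1a was 63.1 and 33.9 CPM in the P3-like cluster of pelvic 1 and pelvic 2, mean 48.5 ± 20.7 (SD, n = 2). It was 13.3 ± 3.94 CPM in P4-like, 3.12 ± 0.876 in P1-like and 1.35 ± 0.259 in P2-like neurons. In both libraries P3-like was highest and P4-like second. A group of 45 cells, 43 of them in pelvic 1, was not selected as neurons and is outside these values. Among its leading genes were Calcb, Sst, the cholinergic markers Slc18a3 and Slc5a7, and Mucl1, a fixed marker of P4-like neurons. Whether these cells belong with the P4-like neurons was not tested.

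Agtr2 also peaked in the P3-like cluster, with 61.2 and 44.0 CPM, mean 52.6 ± 12.2. The noradrenergic-like clusters of stellate and lumbar had at most 0.67 CPM of Agtr2, and those of coeliac 1.36 and 6.03 CPM. Agtr2 was 11.4 ± 6.15 CPM in P1-like, 7.34 ± 2.63 in P2-like and 2.87 ± 0.129 in P4-like neurons. Of 164 P3-like neurons 96 had a UMI of Agtr1a, 138 had one of Agtr2 and 85 had both, where the 2 shares multiplied give 80.8 neurons.

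P4-like neurons were marked by 3 other genes. Ednra was 27.1 and 27.8 CPM in the 2 libraries, mean 27.4 ± 0.503, and Agtr1b was 6.76 and 8.64 CPM, mean 7.70 ± 1.33. Ednrb was 16.3 ± 0.314 CPM, against 1.07 to 5.91 CPM in the other named clusters and 33.7 ± 0.0718 CPM in the unnamed neurons, which also held collagen genes. After removal of doublet-flagged cells Ednrb was 15.7 ± 1.67 CPM in P4-like neurons and 0.585 to 4.49 CPM in the other named clusters. Ednra in the other clusters was 12.4 ± 5.60 CPM (P2-like), 2.49 ± 1.34 (P3-like) and 1.36 ± 0.0902 (P1-like), and no Agtr1b UMI was found in P3-like neurons.

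Edn3 in P1-like neurons was 20.1 and 22.3 CPM, mean 21.2 ± 1.59. In P4-like neurons it was 41.9 CPM in pelvic 1 and 5.86 CPM in pelvic 2, and the mean of 23.9 ± 25.5 says little about the cluster. P2-like and P3-like neurons had 1.58 ± 2.23 and 3.45 ± 4.13 CPM. Ece1 ran from 11.9 ± 0.943 CPM in P1-like to 28.7 ± 1.29 in P4-like neurons, and Edn1 was at most 0.379 ± 0.0409 CPM. At a finer clustering, 121 P1-like neurons led by Areg, Cartpt and Nrn1 had 60.5 and 28.3 CPM of Agtr2 in pelvic 1 and pelvic 2 and 20.5 and 60.9 CPM of Edn3, but 1.98 and 0.298 CPM of Agtr1a.

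**Figure D4:**
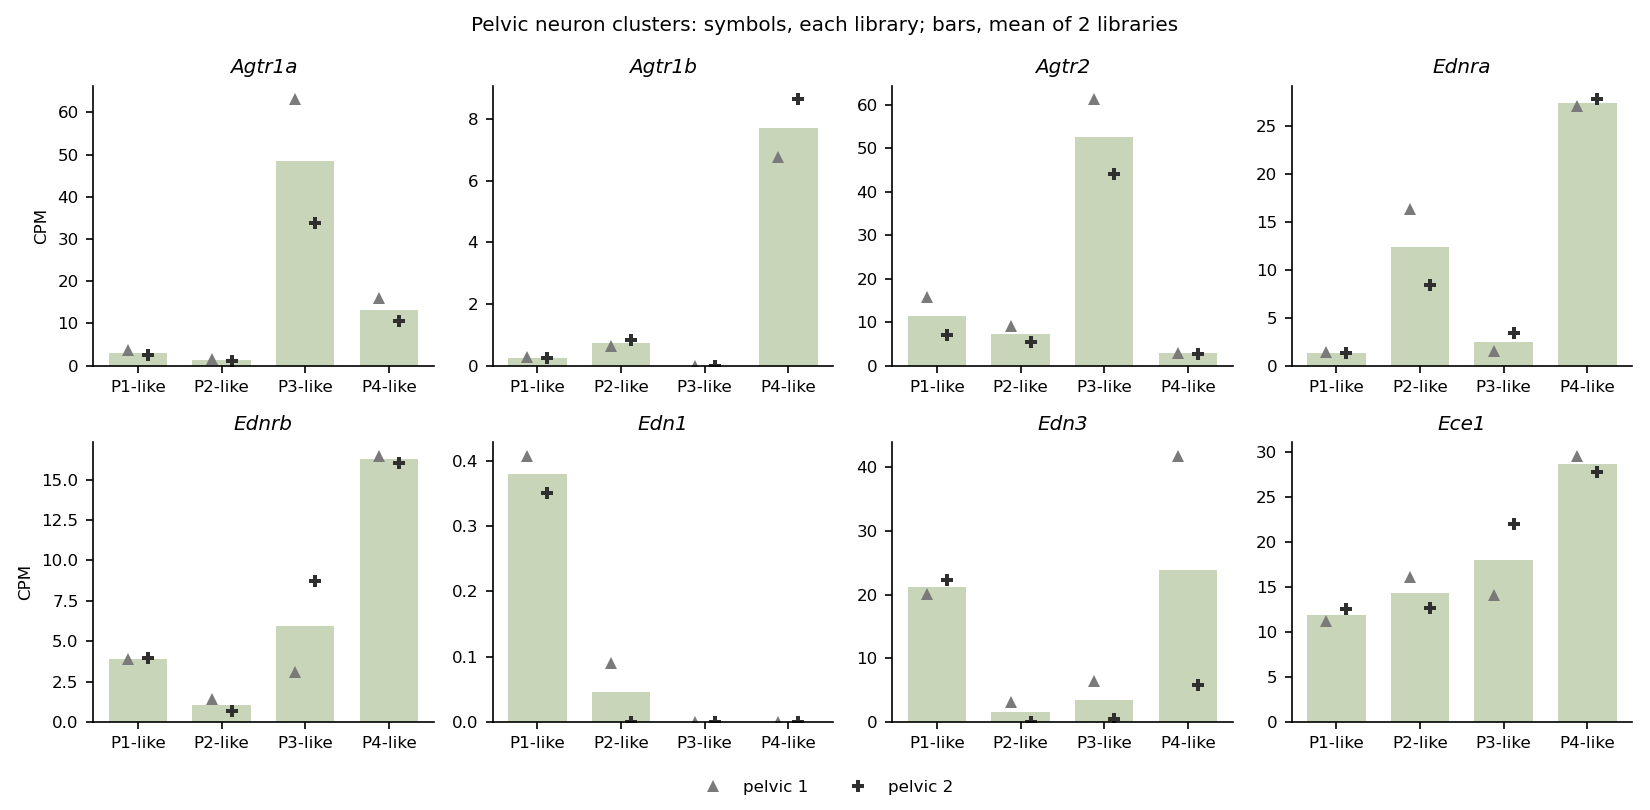
Level of the 8 genes (CPM) in the 4 named pelvic neuron clusters, with bars at the mean of 2 libraries and symbols for each library. Agtr1a and Agtr2 are highest in the P3-like cluster, Agtr1b, Ednra and Ednrb in the P4-like cluster, and Edn3 in P4-like differs between the libraries, at 41.9 and 5.86 CPM.

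Mural-like cells were of 2 kinds that shared Ednra and differed in the angiotensin receptors. Kcnj8-rich cells (387 cells, Kcnj8 being a channel gene of pericytes) had 224 CPM of Agtr1a in stellate, 129 in sphenopalatine, 236 in pelvic 1, 285 in coeliac, 112 in lumbar and 169 in pelvic 2. Myh11-rich cells (226 cells, Myh11 being smooth muscle myosin) were numerous enough in 3 libraries and had 7.16 CPM (1 UMI) in sphenopalatine, 3.15 in pelvic 1 and 0 in pelvic 2, 2.78 CPM (0.904 to 6.49) when pooled. The 6 Kcnj8-rich values and these 3 did not overlap. Myh11-rich cells joined a cluster of 186 cells led by Rergl and Fbxl22 with one of 40 led by Gstm1, Colec11 and Actg2. Ednra was 86.0 and 146 CPM and Agtr1b 13.8 and 7.32 CPM in these clusters. Whether all these cells came from vessel walls was not tested.

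Agtr1b was higher in Myh11-rich than in Kcnj8-rich cells of both pelvic libraries. In Myh11-rich cells it was 10.5 CPM (10 UMIs) in pelvic 1, 21.6 CPM (12 UMIs) in pelvic 2 and 0 in sphenopalatine, 12.8 CPM pooled (8.11 to 19.2). In Kcnj8-rich cells it was 1.64 CPM in pelvic 1, 5.89 in pelvic 2 and 0 to 5.09 in the other 4 libraries. Ednra was 114, 76.7 and 106 CPM in Myh11-rich cells and 64.0 to 244 CPM in Kcnj8-rich cells, with ranges that overlapped. Agtr2 in Kcnj8-rich cells was 108 CPM in pelvic 1 and 86.4 CPM in pelvic 2, and 4.35 to 15.3 CPM in the other 4 libraries.

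Endothelial-like cells led by Gja5, a connexin of arteries, numbered 54, of which 10 were in sphenopalatine and 40 in pelvic 1. Edn1 was 158 CPM (100 to 237) and 183 CPM (149 to 223) in them, against 63.5 and 43.0 CPM in the other endothelial-like cells of the same libraries. Pooled over libraries, Edn1 was 172 CPM in Gja5-led and 50.4 CPM in the other endothelial-like cells. After removal of doublet-flagged cells these levels were 154 and 32.2 CPM. Ednrb was lower in Gja5-led cells, 13.8 CPM (2 UMIs) and 11.2 CPM (6 UMIs) against 31.4 and 34.6 CPM, and 12.7 CPM when pooled (5.8 to 24.1). No Agtr1a UMI was found in them, where 3 counts would have made 4.23 CPM. Ece1 was 371 and 262 CPM in Gja5-led cells and 154 to 311 CPM in the others over 6 libraries.

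**Figure D5:**
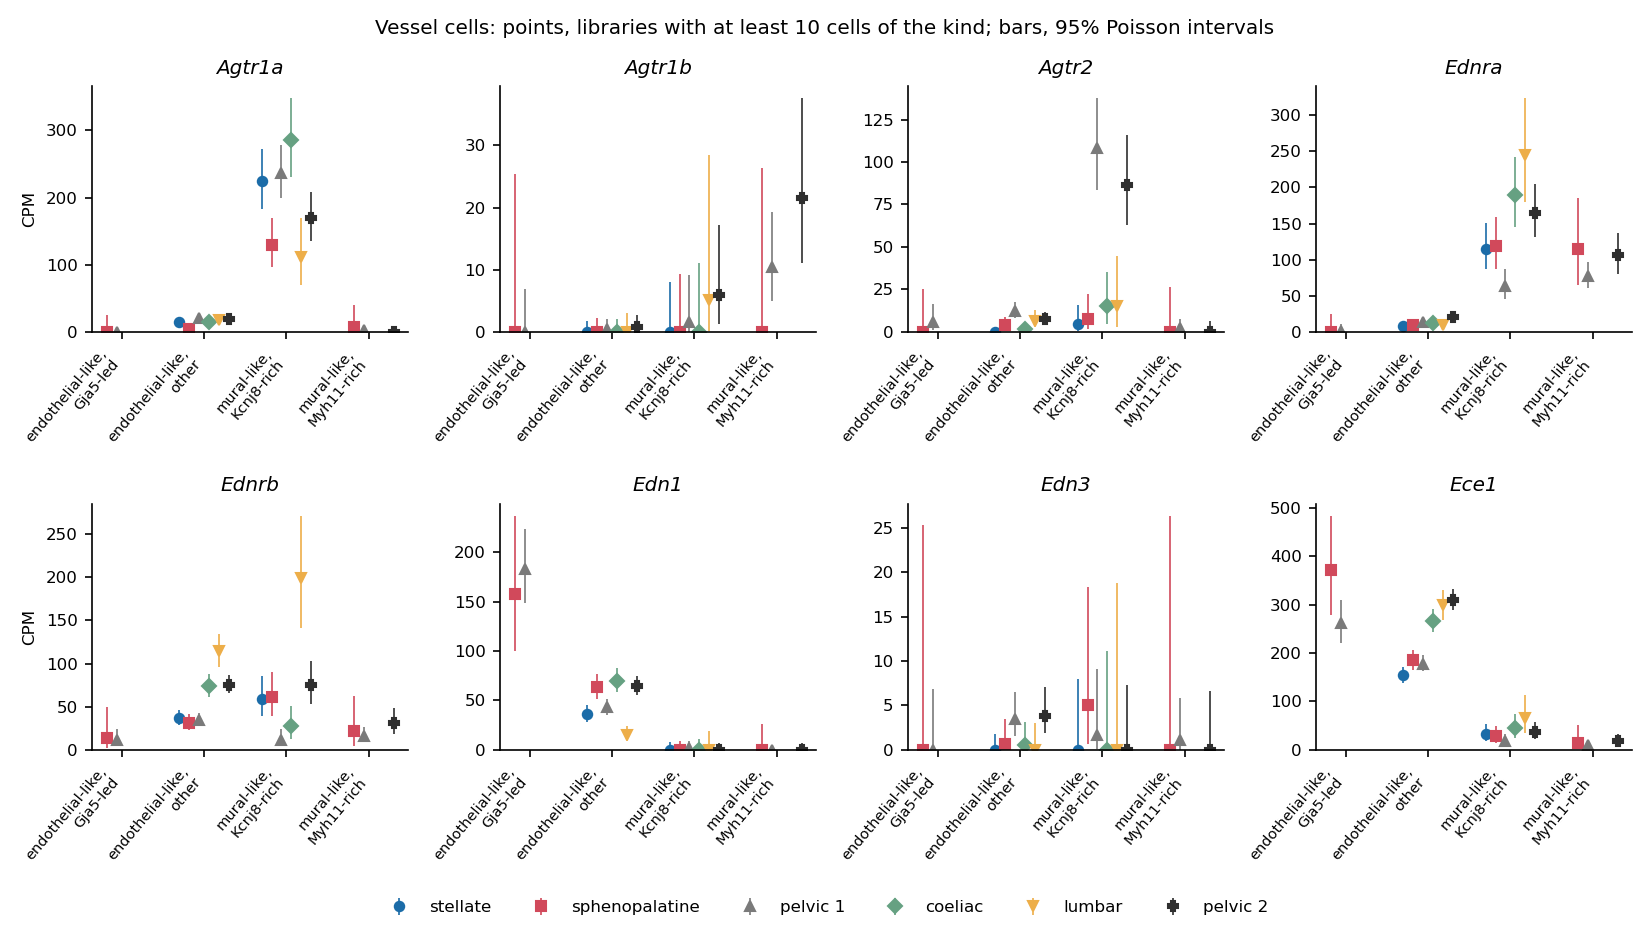
Levels in 2 endothelial-like and 2 mural-like groups of cells (CPM), with 1 point for each library with at least 10 cells and 95% Poisson intervals as bars. Agtr1a is at 112 to 285 CPM in Kcnj8-rich and at 0 to 7.16 CPM in Myh11-rich mural-like cells, and Edn1 is above 150 CPM in both libraries of Gja5-led endothelial-like cells.

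Ednrb was found in the glial-like cells of every library, and their clusters of at least 196 cells had 216 to 685 CPM. Among fibroblast-like clusters Agtr2 ran from 45.5 CPM in a stellate cluster led by Spp1 to 616 CPM in a cluster led by Dpt and Clec3b. Edn3 in fibroblast-like cells was highest, 31.6 CPM, in a cluster of 442 cells led by Crabp2 and Barx1, of which 437 came from sphenopalatine.

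The enzymes and partners around the receptors were followed as lists. Of 14 other angiotensin genes 12 were tested, and in endothelial-like cells 8 were higher and 3 lower, in neurons 5 and 6, in mural-like cells 4 and 4, in fibroblast-like cells 4 and 5, and in glial-like cells 1 and 5. Of all genes tested 31.4% were higher and 32.2% lower in endothelial-like cells, 44.4% and 36.0% in neurons, 16.5% and 23.6% in mural-like, 28.7% and 28.0% in fibroblast-like and 28.8% and 28.3% in glial-like cells, and the counts of the lists that follow stand against the same shares. The list's median log2 fold change was 1.27, -0.59, -0.15, -0.25 and -0.38 in these classes, beside -0.04, 0.12, -0.17, -0.02 and -0.03 for all genes. Agt, the precursor of all angiotensins, was a mural gene, with 10.9 to 70.1 CPM and a median of 46.9 (log2 fold change 5.42, SE 0.42, edgeR adjusted p = 1.29e-10). Ace, which makes angiotensin II, was endothelial, at 39.0 to 117 CPM (5.62, SE 0.19, edgeR adjusted p = 1.34e-18).

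Prcp, a peptidase that also cuts angiotensin II, was endothelial, at 144 to 263 CPM (log2 fold change 3.49, edgeR adjusted p = 7.24e-19). The aminopeptidase Enpep was higher in mural-like (4.04) and fibroblast-like cells (4.52), and so was Anpep (4.16 and 3.45). Agtrap, which binds the type 1 receptor, was higher in fibroblast-like cells (2.18) and lower in neurons (-4.11). Ren1, which encodes renin, and Mas1, a receptor of angiotensin 1-7, did not pass the filter, with Ren1 at 0 to 15.0 CPM in mural-like cells.

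Of 5 other endothelin genes 3 were tested, and 2 of them were higher in neurons, where 44.4% of all genes were. These were the peptidases Ece2, at 24.1 to 33.2 CPM (log2 fold change 4.15, SE 0.23, edgeR adjusted p = 1.11e-14), and Ecel1, at 1.55 to 249 CPM (4.94, SE 0.25, edgeR adjusted p = 2.66e-15). Ece1 and Ece2 thus had their highest levels in different classes. The third, Mme (neprilysin, which degrades endothelins), was higher in glial-like (3.35, edgeR adjusted p = 2.06e-07) and fibroblast-like cells (2.58). All 3 were lower in endothelial-like cells, and none was called in mural-like cells.

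Of 10 genes of Gq signalling, the route by which the type 1 and endothelin receptors raise calcium, 9 were tested. In neurons 4 were higher and 3 lower, in glial-like cells 2 and 7, in endothelial-like cells 5 and 2, in mural-like cells 3 and 2, and in fibroblast-like cells 1 and 4. The median log2 fold change was 0.29, -1.67, 0.30, 0.83 and -0.10 in these classes. Mural-like cells, highest for Agtr1a and Ednra, had Rgs4 (log2 fold change 2.53, SE 0.29, edgeR adjusted p = 1.29e-07), Itpr1 (1.99) and Rgs2 (0.88) higher. Gnaq (-1.22) and Plcb4 (-1.01) were lower in mural-like cells. Rgs4 and Rgs2 are brakes on Gq, and Itpr1 is a calcium channel of internal stores. In neurons Rgs4 (3.18), Plcb4 (2.14) and Gnaq (1.28) were higher, in endothelial-like cells Plcb1 (3.72, edgeR adjusted p = 9.77e-12), and in fibroblast-like cells Gna14 (3.63). Itpr1 (2.23) and Rgs2 (1.74) were also higher in endothelial-like cells, by more than in mural-like cells.

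Across 30 sums of a class in a library, the patterns of 12729 genes were set beside that of each gene (Pearson r of log2 CPM, a description, since sums share libraries and depth). The first and second nearest were Gm525 (r = 0.983) and Prnd (0.979) for Edn1, Dgat2 (0.846) and Gaa (0.826) for Edn3, and 4931406P16Rik (0.967) and Plekhg5 (0.952) for Ece1. They were Plekhh3 (0.962) and Gm15261 (0.939) for Ednra and Ctsc (0.942) and P2rx7 (0.919) for Ednrb. For the angiotensin receptors they were Ephx1 (0.906) and Pde3a (0.89) for Agtr1a, Cpb1 (0.947) and Tnnc2 (0.901) for the sparse Agtr1b, and Twist2 (0.908) and Hs6st2 (0.899) for Agtr2. Among the 8 genes themselves the highest values were 0.749 for Edn1 with Ece1 and 0.667 for Agtr1a with Ednra, and the lowest was -0.718 for Ednrb with Edn3.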

How the data were processed

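Single cells of 6 ganglion preparations were counted by the authors with Cell Ranger 6.0.1 on mm10, per the submitters' processing notes, and the deposited values are UMI counts per gene and droplet, not normalized. Cells were kept where a droplet held between 1500 and 11000 genes and the mitochondrial share stayed below 15%, which left slightly fewer cells than the study states in 3 libraries. Counts were normalized with sctransform 0.4.2 for cell selection. Neurons had a mean of 4 neuronal markers above 3 and a mean of 5 glial markers below 1.15, and 226 cells above both thresholds were left out. Other cells were clustered by Louvain (python-igraph 0.11.9, resolution 1) and neurons within each ganglion at resolution 0.3, without the described and pathway genes, and named only where at least 3 fixed markers were high. Doublet-flagged cells were kept and removed in an alternative.

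Raw counts were summed per library and class with at least 10 cells and tested with edgeR 4.0.16 in R 4.3.3 (trimmed mean normalization, quasi-likelihood, class and library as terms). DESeq2 1.42.0 was an alternative, and the test was checked on simulated data. Intervals are 95% Poisson intervals, and a count of 0 is given with the level that 3 counts make. Positions are those of GRCm38. The members and lists were chosen with earlier results of these data known. Genes named outside them are leading cluster genes, fixed markers, the listed pathway genes and the genes nearest in pattern. Some items are not reported here.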

Additional observations from a re-analysis of the deposited data

Results flagged for a closer look

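A cluster of 331 cells led by Chga, Chgb and Sytl4, genes of secretory granules, met no fixed marker list and took part in no comparison above. Agtr2 was 620 CPM in it, above every named class, with 222 CPM in stellate, 1136 in pelvic 1, 226 in coeliac, 229 in lumbar and 719 in pelvic 2. Edn3 was 28.2 CPM in it, with 4.2, 42.2, 2.37, 9.79 and 64.5 CPM in the same 5 libraries. Both pelvic libraries were highest for each gene. In this cluster 22.4% of cells had over 50% simulated doublets among their neighbours, and the part of doublets in these levels was not tested. Sytl4 also led the unnamed lumbar cluster of 46 neurons, in which Agtr2 was 49.0 CPM. It led an unnamed coeliac cluster of 128 neurons too, whose own Agtr2 level is not given here. Coeliac neurons as a whole had 5.01 CPM of Agtr2, and 3.30 CPM without doublet-flagged cells. Whether Sytl4 and Agtr2 go together was not tested.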

How the results depend on the processing

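Under the alternatives, 560 of 595 values of a gene in a class kept their side of the threshold, 23 lost their call, 12 gained one, and no called value changed sign. Among values not called, the sign changed under some alternatives for Agtr1a in neurons (-0.25 to 0.86), Edn1 in neurons (-0.58 to 1.38), Edn3 in endothelial-like cells (-1.63 to 1.24) and Ednrb in mural-like cells (-0.03 to 1.64). The number of genes called in endothelial-like cells was 5, and 3 with the older chemistry only. In mural-like cells it was 3, and 5 with DESeq2 or without sphenopalatine. Leaving out 1 library in turn gave 5 to 5 calls in neurons, 5 to 6 in glial-like, 4 to 5 in endothelial-like, 3 to 5 in mural-like and 5 to 7 in fibroblast-like cells, and 6 to 6 genes with at least 10 CPM in a named pelvic cluster, 6 before. Over all genes, 5725 were called in mural-like cells, and 3503 with the newer chemistry only. No other count of genes under an alternative was set beside that of all genes, and nothing is read from these counts.

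Intervals of neurons were apart in 39 of 48 pairs, in 37 with selection on log counts, in 40 without exclusion by glial markers and in 32 without doublet-flagged cells. Intervals of the share of neurons with a UMI were apart in 32 of 48 pairs, and in 14 after thinning to 4000 UMIs. None of these counts of pairs was set beside that of all genes. Removing doublet-flagged cells lowered Ednrb in mural-like cells, for example from 57.8 to 24.04 and from 37.4 to 15.3 CPM in 2 clusters, an alternative chosen after seeing the data. Without the filter on low counts Agtr1b was higher in mural-like cells (log2 fold change 4.61, edgeR adjusted p = 4.13e-07). Agtr2 in neurons was not called without the library block (-0.97, edgeR adjusted p = 0.140). Depth limits the sparse Agtr1b and Edn1 in neurons.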
